A study of Mus musculus with 12 samples.

Results

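The genes described here build cholesterol, sense it, store it and move it out of the cell. They are 30 of the 24062 gene rows in the count data, listed by symbol as enzymes of sterol synthesis, regulators of SREBP2 and genes of sterol uptake and efflux, a rule of function that uses no measured value. The list was nevertheless drawn up with earlier results of these data known. By role, 7 catalyze the mevalonate steps, 12 the squalene and sterol steps, 4 belong to SREBP2 regulation, 5 transport sterols and 2 esterify cholesterol. In hepatocytes, cholesterol is built from acetyl-CoA through mevalonate, isoprenoid units and squalene. When membranes of the endoplasmic reticulum run low in sterol, SCAP carries the transcription factor SREBP2 to the Golgi, where it is cut and released to activate the synthesis genes, whereas INSIG1 and INSIG2 hold SCAP back when sterol is plentiful. Surplus sterol activates LXR, which turns on the exporters ABCA1, ABCG5 and ABCG8, and esterification by SOAT1 and SOAT2 stores it in lipid droplets or lipoproteins.

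RNA-seq of polyA RNA was carried out on 12 mouse samples to compare a diet without the essential amino acid tryptophan (Trp) with a control diet in 2 models of liver cancer. MYC-ON livers came from male FVB mice carrying LAP-tTA and TRE-MYC, in which the liver-directed LAP promoter drives the tTA activator and the MYC transgene is switched on once doxycycline is withdrawn at birth. Of these, 3 mice (101, 102 and 103) received the control diet, named the complete diet in the labels, and 3 (105, 107 and 108) the No-Trp diet. The xenografts were HCC53N tumors, a single cell line of mouse liver cancer labelled as p53 knock out with mutant NRAS and as FVB MYC ON, grown under the skin of female immunodeficient NOD-SKID hosts (NOD SCID in the methods), 3 on the control diet (40, 41 and 43) and 3 on the No-Trp diet (35, 36 and 37). The diets lasted 21 days in both models. An age of 45 days is recorded in the labels with the MYC-ON livers of both diets. The methods state this age for the males used to compare wild type with MYC-ON livers. No age is recorded for the xenograft hosts. All 4 groups therefore carry an oncogenic driver, and no sample of normal liver was analysed here.

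Between 14660963 and 26085349 reads were counted on genes per library, and the 30 genes took between 0.199% and 0.328% of them. Among the hepatocyte markers listed for this work (albumin, transthyretin, apolipoproteins and liver enzymes), the summed level was 12040, 38600 and 9493 CPM (counts scaled to a fixed library total) in control livers 101, 102 and 103 and 59130, 121900 and 49770 CPM in No-Trp livers 105, 107 and 108. It was between 325 and 852 CPM in the 6 xenografts. On the control diet 9 of the 9 markers tested were lower than in livers, so that the tumors labelled as liver cancer held little RNA of most of them. Their log2 fold changes ran from −5.96 to −1.49, the last for Hnf4a, at 190.7 CPM against 534.7 CPM in livers. Ass1, 1 of the 10 markers, had no read in xenografts but too few to be tested in livers as well. Biliary markers summed to 18.4 to 50.9 CPM in livers and 336.8 to 834 CPM in xenografts. Liver 101 stood apart in ribosomal Rn45s reads, with 12.1% of its counts against at most 2.22% elsewhere. A resubmission mark was found on 4 libraries, livers 101 and 108 and control xenografts 41 and 43, and thus on no No-Trp xenograft. These are bulk samples, in which fewer cells of a type and less RNA per cell cannot be told apart.

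Promoter sequence was available for 25 of the 30 genes in the RefSeq promoter table (GRCm38.p6, 250 bases before to 50 bases from each start), with none for Fdps, Fdft1, Sqle, Stard4 and Soat2. The windows were searched on both strands for letters of the sites bound by SREBP2 and by factors that act beside it. The core of a sterol regulatory element, TCACNCCAC, was found in 1 of the 25 genes (Hmgcs1), against 1.44% of all 27025 genes in the table. The CCAAT box was found in 22 of the 25, or 88%, against 41.1% of all genes. The E-box CACGTG, a palindrome read by MYC and other factors, was found in 6 of the 25, or 24%, against 8.09% of all genes, in Hsd17b7, Sc5d, Dhcr7, Scap, Insig1 and Abca1. Shown are the Hmgcs1 promoter, because it holds the element core between 2 CCAAT boxes, those of Lbr and Abca1, because these genes moved in opposite directions in the livers, and the whole stretch between the start sites of Abcg5 and Abcg8, because these neighbours share it. Capitals mark the motifs, ATTGG being CCAAT on the other strand, and none of the stretches lies in an annotated exon of GENCODE M21.
Hmgcs1, chr13:119690171-119690320, plus strand: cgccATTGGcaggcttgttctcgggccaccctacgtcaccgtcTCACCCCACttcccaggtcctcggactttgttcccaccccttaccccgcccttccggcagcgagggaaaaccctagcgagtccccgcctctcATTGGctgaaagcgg
Lbr, chr1:181842402-181842501, minus strand: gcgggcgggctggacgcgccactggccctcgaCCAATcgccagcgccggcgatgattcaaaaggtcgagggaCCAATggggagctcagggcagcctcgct
Abca1, chr4:53159976-53160075, minus strand: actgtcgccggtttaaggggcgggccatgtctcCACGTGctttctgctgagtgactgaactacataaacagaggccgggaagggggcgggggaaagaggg
Abcg5 to Abcg8, chr17:84683012-84683120, plus strand: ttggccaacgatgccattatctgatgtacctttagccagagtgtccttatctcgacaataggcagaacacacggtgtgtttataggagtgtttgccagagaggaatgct
Counted from the start site, with −1 as the base before it, the sterol element core of Hmgcs1 begins at −137, the CCAAT boxes of Lbr at −68 and −28, and the E-box of Abca1 at −147. No match overlaps another in these stretches. The 109 bases between Abcg5 (start 84683011, minus strand) and Abcg8 (start 84683121, plus strand) hold none of the 3 motifs. A match describes letters only, and a window without one says nothing about the factor.

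In MYC-ON livers, the No-Trp diet was accompanied by higher mRNA of the sterol exporters and of the esterification enzyme Soat2 and by lower mRNA of the late synthesis enzymes Lbr and Dhcr7. Abcg5 was 7.71-fold, Abcg8 6.33-fold, Soat2 2.64-fold and Abca1 2.37-fold higher, whereas Lbr was 3.43-fold and Dhcr7 2.04-fold lower (n = 3 mice per diet). Of the 29 members with enough reads to test, 4 were called higher and 2 lower, where a call needed an adjusted p no higher than 0.05 and a log2 fold change beyond ±1 (edgeR quasi-likelihood test). Over all 14122 genes tested, 9.28% were called higher and 7.27% lower. By adjusted p alone 5 members were higher and 2 lower, where 13.3% and 12% of all genes were. The diet groups did not overlap for 5 members that were higher and 8 that were lower under No-Trp, against 23.3% and 25.4% of all genes. With 29 members, these counts lie near the shares of all genes in both directions. The median log2 fold change was 0.036 over the 29 members, with 15 positive and 14 negative, beside −0.003 over all genes, and it was −0.38 over the 19 synthesis enzymes. The plot of diet differences shows each member in both models.

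**Figure D1:**
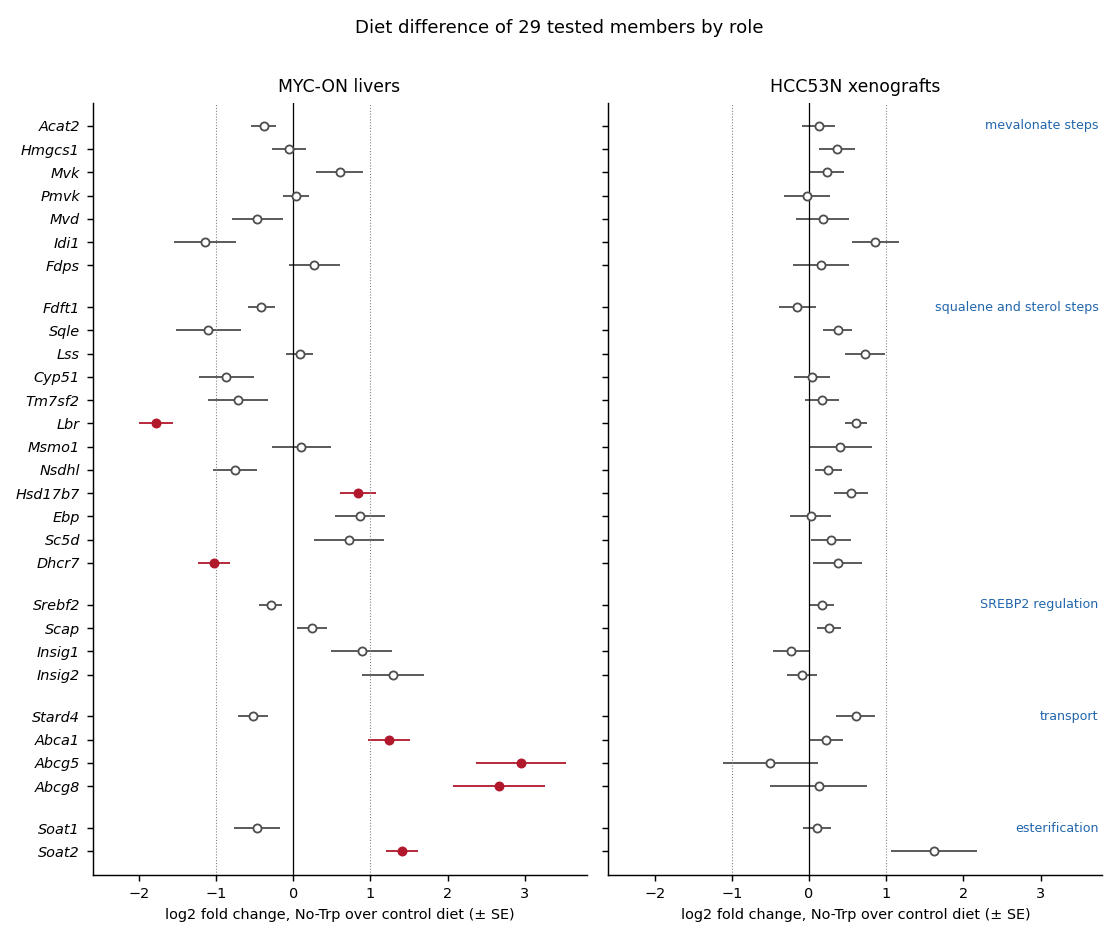
Log2 fold change between the No-Trp and the control diet (x axis, point and standard error) of the 29 tested members, ordered along the pathway and by role (y axis), in MYC-ON livers (left) and HCC53N xenografts (right). Filled red points have an adjusted p of at most 0.05 and dotted lines mark a log2 fold change of 1 in size. In livers Abcg5 at 2.95 lies farthest to the right and Lbr at −1.78 farthest to the left, and in xenografts 24 of the 29 points lie to the right of 0, up to Soat2 at 1.62, with none filled.

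None of the 7 genes of the mevalonate steps passed the edgeR test in livers (2 with an unadjusted p under 0.05, both lower), and DESeq2 called Idi1 lower. Their edgeR log2 fold changes ranged from −1.15 to 0.60. Idi1 (isopentenyl diphosphate isomerase, chr13:8885501-8892451) was the farthest from 0. It was at 30.4, 81.7 and 56.3 CPM in control livers 101, 102 and 103 and at 28.3, 15.6 and 31.1 CPM in No-Trp livers 105, 107 and 108. Control liver 101 lies within the No-Trp range, so the diets overlap, and the log2 fold change of −1.15 ± 0.40 SE, adjusted p = 0.0714 missed the threshold with edgeR, whereas DESeq2 (−1.16, adjusted p = 0.0252) and the edgeR fit over all 12 libraries (−1.16, adjusted p = 0.0399) made the call. Hmgcs1, the synthase that makes HMG-CoA, was at 205, 268 and 169.9 CPM in controls and 172, 194 and 239.9 CPM under No-Trp, and the diets overlap widely (−0.06 ± 0.22 SE, adjusted p = 0.861). Acat2, which condenses acetyl-CoA, did not overlap between diets, with 112, 86.5 and 86.9 CPM against 71.7, 65.9 and 78.1 CPM, but did not pass (−0.38 ± 0.16 SE, adjusted p = 0.119). Acat2 has a near-identical copy, Acat3, and reads may be split between them. For Mvk, Pmvk, Mvd and Fdps the adjusted p was between 0.177 and 0.892.

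Among the 12 squalene and sterol steps, Lbr and Dhcr7 fell and Hsd17b7 rose, the latter by adjusted p with a fold change under the call size. Lbr (chr1:181815335-181843046) encodes the lamin B receptor, a protein of the inner nuclear membrane that also reduces the sterol double bond at the step shared with Tm7sf2. It was at 96.5, 109 and 122 CPM in control livers and 35.3, 22.6 and 36.2 CPM in No-Trp livers. Every No-Trp liver was below every control liver, with the lowest value in liver 107, and the log2 fold change was −1.78 ± 0.22 SE, adjusted p = 0.0129. Tm7sf2, the partner reductase, was at 30.4, 45.4 and 14.7 CPM and 21.1, 18.4 and 14.5 CPM, overlapping between diets (−0.72 ± 0.39 SE, adjusted p = 0.201), and it shares exon sequence with Vps51 on the same strand. On a per-length scale the ratio of Lbr to Tm7sf2 was 1.33, 1.00 and 3.47 in control livers and 0.702, 0.514 and 1.05 under No-Trp, and liver 108 lay above control liver 102 in this ratio.

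Dhcr7 (chr7:143823145-143848410), the reductase that makes cholesterol from its direct precursor, was at 116, 99.6 and 98.3 CPM in controls and 55.5, 37.4 and 59.2 CPM under No-Trp. Here too all No-Trp livers were below all controls (−1.03 ± 0.20 SE, adjusted p = 0.0213). Hsd17b7 (chr1:169949535-169969241), the ketoreductase of the demethylation complex, went the other way, from 40.6, 69.0 and 40.2 CPM to 92.8, 88.8 and 82.1 CPM, without overlap (0.84 ± 0.23 SE, adjusted p = 0.0388). Control liver 102 was the highest of its group for Hsd17b7.

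The other 9 sterol-step genes did not pass the edgeR test within livers. Sqle, the squalene epoxidase, was at 102, 115 and 81.4 CPM in controls and 44.1, 20.5 and 72.4 CPM under No-Trp. The diets did not overlap for Sqle, and liver 107 was far below the others (−1.10 ± 0.42 SE, adjusted p = 0.0916). Sqle was called lower with DESeq2, in the edgeR fit over all 12 libraries and, together with Cyp51, without liver 108. Fdft1 (squalene synthase) and Nsdhl (a sterol dehydrogenase) also did not overlap and were lower under No-Trp, at log2 fold changes of −0.41 and −0.76. Exons of Fdft1, Lss and Cyp51 overlap genes on the other strand (Ctsb, 4930483K19Rik and Akap9), and the strand setting of the counting is not given in the sources used here. Ebp, the sterol isomerase, and Sc5d, the sterol desaturase, stood at 0.87 and 0.72 with overlap, and Cyp51, Lss and Msmo1 at −0.87, 0.08 and 0.10. The synthesis enzymes summed to 1554, 1887 and 1303 CPM in control livers and 1287, 1218 and 1514 CPM in No-Trp livers, with control liver 103 inside the No-Trp range.

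None of the 4 genes of SREBP2 regulation passed the edgeR test within livers. Srebf2, which encodes SREBP2, was at 134, 129 and 160.4 CPM in control livers and 119.8, 105 and 117 CPM in No-Trp livers. The values did not overlap and were lower under No-Trp, by a log2 fold change of −0.29 ± 0.15 SE, adjusted p = 0.188. Insig2, which is made from a transcript of its own in liver, was at 26.6, 50.6 and 25.9 CPM in controls and 72.6, 125 and 49.9 CPM under No-Trp. Liver 107 was the highest and liver 108 lay at the level of control liver 102, so the diets overlap (1.29 ± 0.40 SE, adjusted p = 0.0539), and the call was made with DESeq2 (1.28, adjusted p = 0.0127), with the resubmission mark as a covariate and in the fit over all 12 libraries. Insig1, itself a target of SREBP2, was at 127, 120 and 77.9 CPM and 121, 323 and 144 CPM, and No-Trp liver 107 alone stood far above the rest (0.89 ± 0.40 SE, adjusted p = 0.136). Scap was at 131, 131 and 140.5 CPM and 151, 195 and 124 CPM (0.25 ± 0.20 SE, adjusted p = 0.373).

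The transporters held the widest diet differences of all members in livers. Abcg5 (chr17:84658234-84683011) and Abcg8 (chr17:84676302-84700333) lie head to head, across the 109 bases printed above, and their products pair into the transporter that secretes sterols into bile. Abcg5 was at 13.0, 44.3 and 17.9 CPM in control livers 101, 102 and 103 and 142, 309 and 117 CPM in No-Trp livers 105, 107 and 108. Abcg8 was at 9.99, 46.1 and 24.1 CPM and 137, 256 and 105 CPM in the same order. For both genes control liver 102 was the highest control, liver 107 the highest of all, and no No-Trp liver came down to a control. The log2 fold change was 2.95 ± 0.58 SE, adjusted p = 0.0221, for Abcg5 and 2.66 ± 0.60 SE, adjusted p = 0.0266, for Abcg8. Without control liver 102 the values were 3.62 and 3.28. With 1 library left out they ranged from 2.38 to 3.62 for Abcg5 and from 2.19 to 3.28 for Abcg8. Per length, Abcg8 stood at 0.481 to 0.843 of Abcg5 in controls and at 0.519 to 0.603 under No-Trp, so the ratio overlapped between diets while both levels differed. Exons of the pair overlap on opposite strands, and reads there could count for either.

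Abca1 (chr4:53030787-53159895), which loads cholesterol onto apolipoprotein A-I, was at 68.1, 115 and 98.6 CPM in controls and 201, 287 and 168 CPM under No-Trp. All No-Trp livers were above all controls (1.25 ± 0.27 SE, adjusted p = 0.0249). Scaled by library totals alone, Abca1 stood at 0.90 (adjusted p = 0.0453), under the fold change a call needed. Stard4 (chr18:33199355-33213862), a cytosolic sterol carrier, was at 53.3, 74.3 and 82.4 CPM and 51.5, 47.4 and 44.8 CPM, lower under No-Trp without overlap but not past the threshold (−0.52 ± 0.19 SE, adjusted p = 0.0803). Npc1l1, the intestinal and biliary uptake transporter, had 6, 3 and 8 reads in control livers, 0, 2 and 1 under No-Trp and at most 3 in any xenograft. It was not tested, and a count of 0 allows up to 3 reads.

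In esterification, Soat2 rose and Soat1 did not pass. Soat2 (chr15:102150526-102163469), the enzyme of hepatocytes and enterocytes, was at 61.5, 75.2 and 57.2 CPM in control livers and 132, 203 and 169.8 CPM in No-Trp livers. The groups are far apart, and the log2 fold change was 1.40 ± 0.21 SE, adjusted p = 0.0160. Soat1, the enzyme of macrophages and most other cells, was at 24.8, 15.5 and 28.1 CPM and 20.6, 11.9 and 16.3 CPM with overlap (−0.47 ± 0.30 SE, adjusted p = 0.270).

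**Figure D2:**
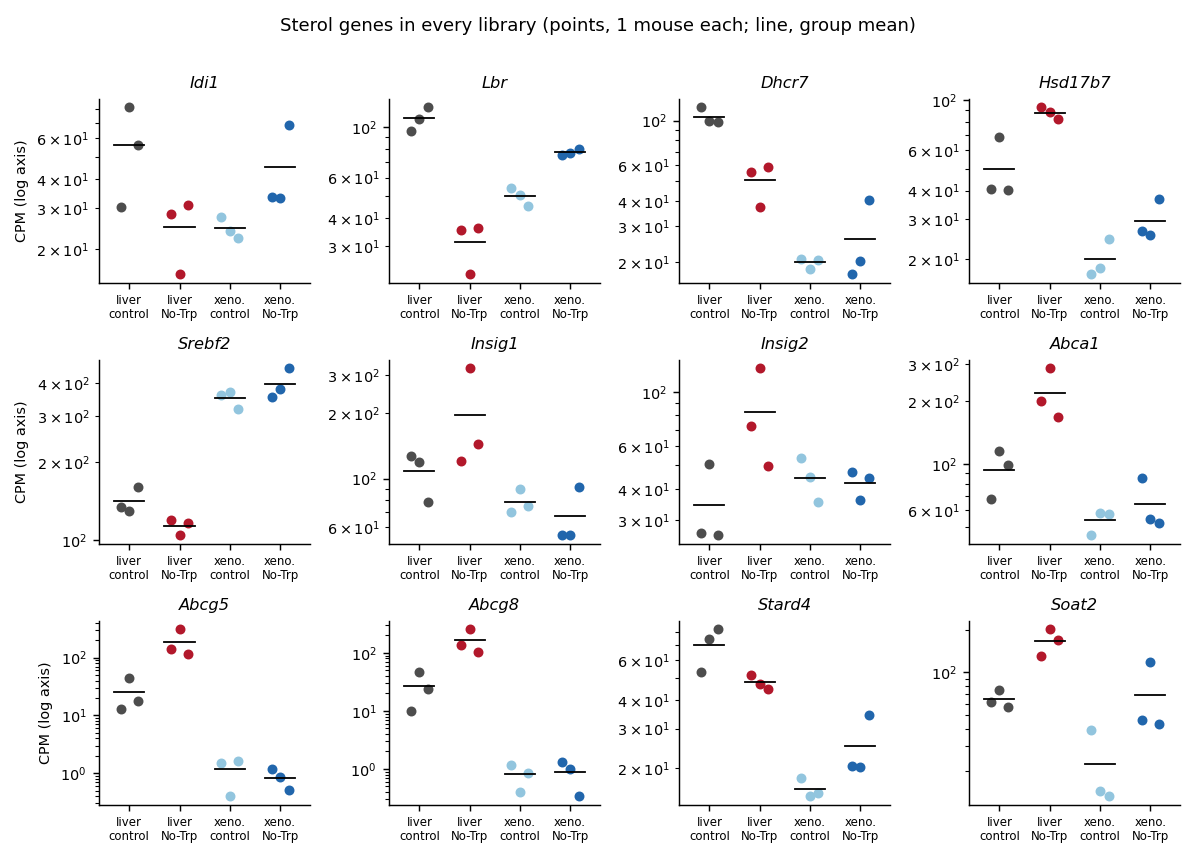
CPM on a log axis (y axis, range set for each gene) of 12 sterol genes in each of the 12 libraries, with the 4 groups on the x axis (liver or xenograft, control or No-Trp diet), 1 point per mouse in the order of the text and a line at the group mean. Abcg5 and Abcg8 are above 100 CPM in the No-Trp livers and below 2 CPM in all xenografts, and the No-Trp points of Lbr lie below the control points in livers and above them in xenografts.

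Markers of several cell types and of cell division moved with these genes in livers. Of 9 hepatocyte markers tested, 4 were called higher and 0 lower under No-Trp, and 6 of the 9 had an unadjusted p under 0.05, all of them higher. Their summed level was highest in liver 102 among controls and in liver 107 among No-Trp livers, as were Abcg5, Abcg8, Abca1, Soat2 and Insig2. Alb (albumin) made up a large part of that sum, at a mean of 12110 CPM in controls and 52320 CPM under No-Trp. The order of livers in the sum therefore leans on this gene. Of 6 cell division markers 5 were called lower, and their sum was 1226, 1074 and 1209 CPM in controls and 336, 73.4 and 326 CPM under No-Trp. The sum was lowest in liver 107, as were Lbr, Dhcr7, Sqle and Idi1 and other synthesis enzymes, among them Cyp51, Nsdhl and Fdft1. Among controls the order differed. Liver 101, highest in the sum, was highest for Dhcr7 but lowest for Lbr and Idi1. Control liver 102, lowest in the sum, was highest for Sqle and Idi1. Macrophage markers, cells in which Abca1 and Soat1 are also made, summed to 520.5, 843 and 755 CPM and 899, 409 and 787 CPM, and 0 of 7 tested were called (edgeR, 3 with an unadjusted p under 0.05, DESeq2 0). The macrophage markers did not move as one, with 4 positive and 3 negative. Vsig4 was higher by adjusted p alone (log2 fold change 0.87, edgeR, adjusted p = 0.0496), and Cd68 stood at −0.94. Liver tumor markers summed to 29130, 23260 and 27300 CPM in controls and 11490, 2253 and 13380 CPM under No-Trp, lower without overlap and lowest in liver 107, with 0 of 4 called (edgeR, 2 with an unadjusted p under 0.05, DESeq2 2). Endothelial markers summed to 95.3, 185 and 168.4 CPM and 256.4, 329.5 and 203.8 CPM, higher without overlap and highest in liver 107, with 1 of 6 called, Clec4g (1.97). Kdr and Stab2 stood at log2 fold changes of 1.39 and 0.97, whereas Lyve1, Pecam1 and Cdh5 stood at 0.28, 0.16 and −0.09. Both tested erythroid genes were called lower, and the erythroid sum was 34.2, 418.8 and 289.2 CPM and 6.68, 7.35 and 14.6 CPM. Of fibroblast markers 1 of 7 was called higher, of adipocyte markers 1 of 2 lower and of biliary markers 0 of 4 (edgeR and DESeq2, 0 with an unadjusted p under 0.05). The part of these cell types and of cell division in the sterol gene differences was not tested. The calls rest on few mice. Without control liver 103 none of the 29 members was called (edgeR, 5 higher and 6 lower at an unadjusted p under 0.05), and of all genes 7 were called higher and 1 lower. Without control liver 101 only Lbr was called, without No-Trp liver 105 only Soat2 and Lbr, and without No-Trp liver 107 only Abcg5, Soat2 and Lbr. The calls over all genes fell as well, from 1311 higher and 1026 lower with all 6 livers. They were 178 and 116 without liver 101, 298 and 70 without liver 105, and 660 and 609 without liver 107. Without control liver 102, 8 were called higher, adding Ebp, Hsd17b7, Insig2 and Sc5d, and without No-Trp liver 108, 5 were called higher and 4 lower, adding Insig2, Cyp51 and Sqle. Of all genes, 1959 were called higher and 1248 lower without liver 102, and 1205 and 938 without liver 108. All 6 called members kept their direction in every one of these fits.

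**Figure D3:**
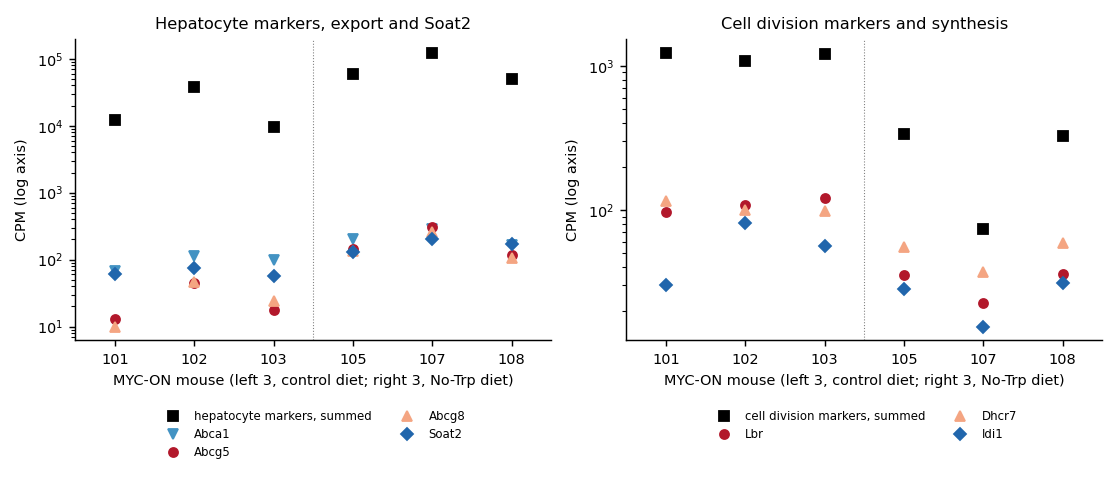
CPM on log axes (y axis) in the 6 MYC-ON livers (x axis, mouse number, control diet left of the dotted line and No-Trp diet right of it), with marker lists summed (black squares) beside single sterol genes. Hepatocyte markers, Abca1, Abcg5, Abcg8 and Soat2 peak in liver 107 (left), where cell division markers, Lbr, Dhcr7 and Idi1 are lowest (right).

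Genes of the pathway that are not among the 30 were counted from lists of related functions. Over all genes tested in livers, 9.28% were called higher and 7.27% lower. In livers, 3 of 7 genes of LXR and its targets were called higher and 0 lower: the phospholipid remodelling enzyme Lpcat3 (120 ± 9.31 CPM in controls and 261 ± 73.9 CPM under No-Trp, SD, n = 3, log2 fold change 1.15, adjusted p = 0.0216), Nr1h3, which encodes LXR alpha (60.4 ± 21.8 and 124.5 ± 16.8 CPM, 1.07, adjusted p = 0.0298), and Apoe (5316 ± 2539 and 20300 ± 8798 CPM, 1.96, adjusted p = 0.0366). Of 8 genes of intracellular sterol transport, 1 was called, Gramd1c, at 21.9 ± 7.14 and 88.5 ± 16.2 CPM (2.04, adjusted p = 0.0142). Of 9 genes of bile acid synthesis and export, 2 were called higher, Hsd3b7 (1.48, adjusted p = 0.0218) and Cyp27a1 (1.93, adjusted p = 0.0236). Of 8 genes of the isoprenoid branches, 1 was called lower, Pdss1 of coenzyme Q synthesis (−1.20, adjusted p = 0.0388). None of 4 genes of cytosolic acetyl-CoA was called (1 at an unadjusted p under 0.05, DESeq2 0). Srebf1, the sister gene of Srebf2 and itself an LXR target, was at 171 ± 34.2 CPM in controls and 213.9 ± 123 CPM under No-Trp (0.35, adjusted p = 0.531). Abcg1, of the same list, had the only negative value among its 7 genes and did not pass. It was at 31.0 ± 8.95 CPM in controls and 22.1 ± 5.70 CPM under No-Trp (−0.465, adjusted p = 0.254).

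In HCC53N xenografts no member was called. Of all 14704 genes tested, 0.245% were called higher and 0.116% lower. The test left 0 of 29 members called by edgeR, 6 had an unadjusted p under 0.05, all of them higher under No-Trp, and DESeq2 called 1, Soat2 (1.63, adjusted p = 0.0125). Over all genes, 7.82% had an unadjusted p under 0.05 in the higher and 9.07% in the lower direction. The diets did not overlap for 7 members, all higher, and for 0 that were lower, against 11.2% and 11.3% of all genes. Of the 29 members, 24 had a positive log2 fold change, from 0.018 for Ebp to 1.62 for Soat2, and the median log2 fold change was 0.23 beside −0.004 over all genes. The median was 0.05 without No-Trp xenograft 37. That tumor was the highest in the summed synthesis enzymes, which stood at 1301, 1007 and 1080 CPM in control xenografts 40, 41 and 43 and 1078, 1194 and 1851 CPM in No-Trp xenografts 35, 36 and 37.

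Among single genes of the xenografts, Lbr came nearest to the threshold. It was at 54.2, 50.6 and 45.0 CPM in control xenografts and 75.1, 76.7 and 80.2 CPM in No-Trp xenografts. All 3 No-Trp tumors were above all controls and close to each other (0.61 ± 0.14 SE, adjusted p = 0.100). Idi1 was at 27.5, 23.9 and 22.3 CPM and 33.5, 33.2 and 68.4 CPM, without overlap and with xenograft 37 well above the rest (0.86 ± 0.30 SE, adjusted p = 0.219). Lss, which folds squalene epoxide into lanosterol, was at 18.2, 20.6 and 22.2 CPM and 23.1, 32.5 and 46.1 CPM, again without overlap (0.72 ± 0.26 SE, adjusted p = 0.221). Stard4 was at 18.2, 15.1 and 15.6 CPM and 20.5, 20.3 and 34.3 CPM and showed the same order of groups (0.60 ± 0.25 SE, adjusted p = 0.275). Hsd17b7 and Scap also did not overlap, at log2 fold changes of 0.54 and 0.26.

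Soat2 had the largest difference in xenografts, 1.62 ± 0.56 SE on the log2 scale, and did not pass (adjusted p = 0.228). It was at 39.0, 14.5 and 13.2 CPM in control xenografts 40, 41 and 43 and 46.1, 119 and 43.4 CPM in No-Trp xenografts 35, 36 and 37. The groups do not overlap, but control 40 lies just below No-Trp xenografts 35 and 37, and xenograft 36 stands far above all. The control tumors with the resubmission mark are the 2 low ones. With the mark as a covariate the difference was 0.81. No No-Trp tumor carries the mark, so that value compares control 40 alone with the No-Trp tumors. It was 0.99 without No-Trp xenograft 36 and 2.30 without control xenograft 40. Dhcr7 was at 20.8, 18.6 and 20.6 CPM and 17.4, 20.2 and 40.5 CPM (0.37 ± 0.32 SE, adjusted p = 0.601), and without xenograft 37 the sign turned, to −0.11. Srebf2 was at 359.5, 371 and 319.8 CPM and 355, 380.5 and 457 CPM (0.16 ± 0.16 SE, adjusted p = 0.647).

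None of the regulators and exporters passed the test in xenografts. Insig1 was at 70.3, 89.6 and 74.8 CPM and 55.1, 54.8 and 91.5 CPM, and Insig2 at 53.9, 44.6 and 35.4 CPM and 47.0, 36.0 and 44.5 CPM, overlapping in both cases (log2 fold changes −0.24 and −0.09). Abca1 was at 45.4, 58.2 and 57.5 CPM and 85.2, 54.3 and 52.1 CPM (0.23 ± 0.21 SE, adjusted p = 0.634). Abcg5 had 10 to 32 reads per tumor and Abcg8 8 to 36, at most 1.64 CPM, a depth at which a difference of moderate size was not detectable. Cell division markers summed to 424, 456 and 479 CPM in control and 541, 692 and 664 CPM in No-Trp xenografts, with 0 of 6 called (4 at an unadjusted p under 0.05, DESeq2 0). Adipocyte markers summed to 11.4, 67.0 and 14.8 CPM and 454, 356 and 737 CPM, with 2 of 5 called higher, and their part in the sterol gene values was not tested. None of the pathway lists outside the 30 held a called gene in xenografts, where 11 of their 43 tested genes had an unadjusted p under 0.05 and DESeq2 called 1, in intracellular sterol transport.

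The test of the difference itself, in a fit over all 12 libraries, found the diet effect to differ between models for 5 members. It was more positive in xenografts than in livers for Lbr (difference of log2 fold changes 2.41 ± 0.26 SE, adjusted p = 0.00165), Idi1 (2.03 ± 0.55 SE, adjusted p = 0.0302), Dhcr7 (1.42 ± 0.40 SE, adjusted p = 0.0356) and Stard4 (1.15 ± 0.32 SE, adjusted p = 0.0337). It was more negative for Abcg5 (−3.37 ± 0.88 SE, adjusted p = 0.0275). Among all 15472 genes, 6.70% were called in the first direction and 6.01% in the second, where 4 and 1 of the 29 members were. For Lbr the values do not overlap in either model and lie in opposite orders, below control in livers and above control in xenografts, and the call was kept under all 19 alternatives, with adjusted p from 9.28e-15 to 0.00805. Idi1, Dhcr7, Stard4 and Abcg5 lost the call in 6 to 8 of the 19. All 4 lost it without liver 103, liver 107, xenograft 37 or xenograft 43, and 1 to 3 of them without liver 101, 105 or 108 or xenograft 36, 40 or 41. The Abcg5 difference was −4.05 without liver 102 and −4.01 with the resubmission mark as a covariate, and it ranged from −4.05 to −2.81 over the 19 alternatives. All 6 cell division markers were also called in the interaction and in the direction of Lbr, as were 4 of 5 adipocyte and 2 of 2 tested erythroid markers. All 9 tested hepatocyte markers were negative, the direction of Abcg5, and 3 of them were called. Of macrophage markers 1 of 7 and of endothelial markers 1 of 6 were called in the positive direction, and of biliary markers 1 of 4 in the negative. Whether any of these lists goes together with the sterol genes beyond that was not tested. Abcg8 and Insig2, with differences of −2.47 and −1.35, did not pass (adjusted p = 0.0868 and 0.0725), and Soat2 differed by 0.25 ± 0.63 SE (adjusted p = 0.825).

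On the control diet the models differed in many of the 30 genes. This comparison uses the control samples of both diet comparisons, and tissue site, sex, strain and host differ with the model and cannot be told apart. In xenografts 3 members were called higher than in livers and 12 lower, against 23.3% and 20.2% of all 15472 genes. Higher were Soat1 (2.95 ± 0.26 SE, adjusted p = 1.70e-06), Msmo1, a sterol oxidase (1.35 ± 0.44 SE, adjusted p = 0.0198), and Srebf2 (1.31 ± 0.15 SE, adjusted p = 1.60e-05). The lowest in relation to livers were Abcg8 (−5.06 ± 0.68 SE, adjusted p = 6.67e-05) and Abcg5 (−4.44 ± 0.64 SE, adjusted p = 1.18e-04), followed by Dhcr7 (−2.39 ± 0.30 SE, adjusted p = 2.63e-05) and Stard4 (−2.10 ± 0.23 SE, adjusted p = 1.13e-05). Fdft1, Soat2, Lss, Acat2, Hsd17b7, Idi1, Scap and Lbr were also lower, with log2 fold changes between −1.77 and −1.13. Without liver 102, Abcg8 was at −4.46 and Abcg5 at −3.79, and without xenograft 40 Soat2 was at −2.22 against −1.54. The call was lost for Msmo1 without liver 101, liver 103 or xenograft 41, for Idi1 without liver 102, xenograft 41 or xenograft 43, for Soat2 without xenograft 41 or 43, and for Lbr and Scap with library totals. Hepatocyte markers had a median of −5.68 on the same scale (9 of 9 called lower), and their part in the sterol gene values was not tested.

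Levels were compared per kb of exon, joined over the RefSeq-matched transcripts of each gene. Fdps, which makes farnesyl diphosphate, stood highest of the members in control livers, at 84.9 ± 22.0 CPM per kb (SD, n = 3). Fdft1 followed at 68.5 ± 5.89 and Hmgcs1 at 61.5 ± 14.2 CPM per kb, and these 3 do not differ beyond their spread. At the low end of the livers stood Abca1 at 9.14 ± 2.31, Abcg8 at 7.13 ± 4.86 and Soat1 at 2.73 ± 0.784 CPM per kb, before Npc1l1. In control xenografts Msmo1 at 75.8 ± 10.5, Fdps at 75.0 ± 18.7 and Srebf2 at 69.0 ± 5.31 CPM per kb led and do not differ beyond their spread. Sqle followed at 39.6 ± 5.61 CPM per kb, below all of them. Lowest were Abcg5 at 0.504 ± 0.290 and Abcg8 at 0.215 ± 0.104 CPM per kb, again before Npc1l1. The level of Fdps overlapped between the models.

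**Figure D4:**
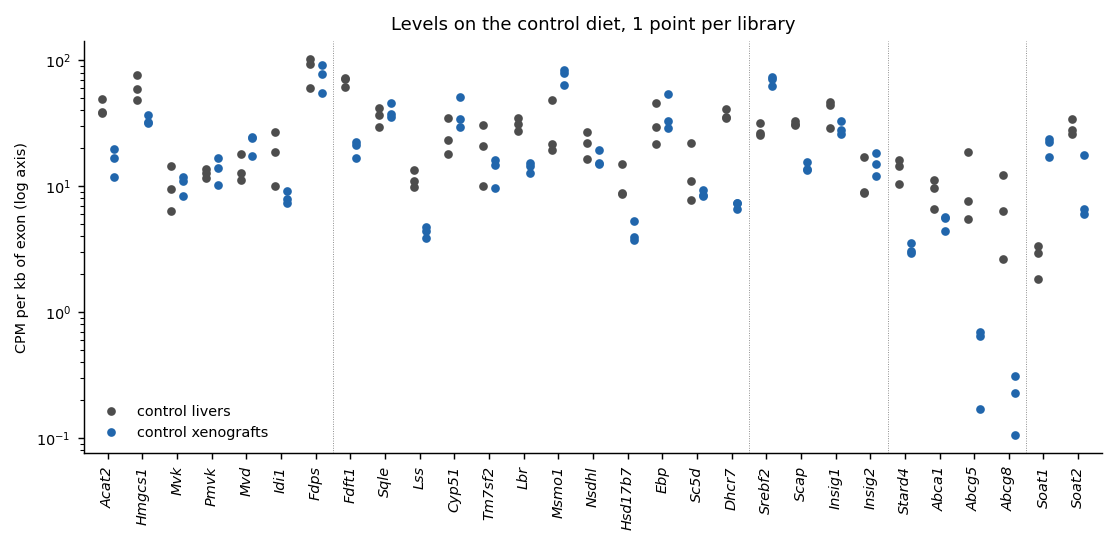
CPM per kb of exon on a log axis (y axis) for 29 members ordered along the pathway and by role (x axis, roles parted by dotted lines), with 1 point per library for the 3 control livers (grey) and the 3 control xenografts (blue). Soat1 and Srebf2 lie higher in xenografts, and Abcg5, Abcg8, Dhcr7 and Stard4 lie lower, with no overlap between the models for any of these 6.

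The choice between the esterification enzymes marked the models apart. Per length, Soat2 exceeded Soat1 9.39, 18.4 and 7.71 times in control livers and 24.2, 64.35 and 39.6 times in No-Trp livers. Every No-Trp liver was above every control liver in this ratio. In xenografts Soat1 was the more abundant in all controls, with a ratio of 0.792, 0.275 and 0.348, whereas the No-Trp tumors were at 1.11, 2.13 and 0.794. The lowest No-Trp tumor thus stood level with control 40. All livers were above all xenografts. The ratio depends on the exon lengths used. In CPM without length scaling, Soat1 exceeded Soat2 in every xenograft, at 212 against 119 CPM in No-Trp xenograft 36. For the regulators the ratio of Insig2 to Insig1 was 0.191 to 0.385 in control livers and 0.316 to 0.547 in No-Trp livers, and 0.432 to 0.699 and 0.445 to 0.779 in xenografts, overlapping between diets in both models.

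**Figure D5:**
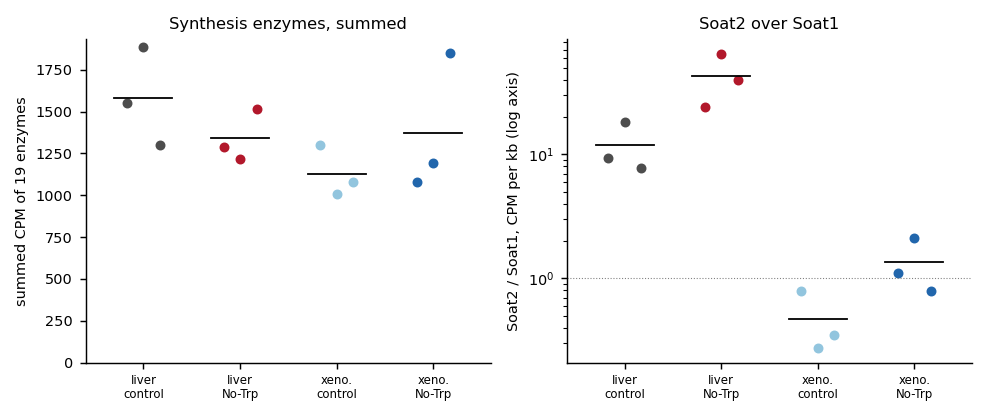
Summed CPM of the 19 synthesis enzymes (left, linear axis from 0) and the ratio of Soat2 to Soat1 in CPM per kb (right, log axis, dotted line at equal levels) in the 4 groups of 3 libraries (x axis), 1 point per mouse with a line at the group mean. The summed enzymes overlap between diets in both models, and the ratio is above 7 in every liver and below 3 in every xenograft.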

How the data were processed

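PolyA RNA was sequenced from 12 mouse samples, 3 per diet in each of 2 models. Per the labels and methods, the authors trimmed reads with Trim Galore, aligned them with STAR 2.7.2b to mm10 (GRCm38.p6), handled alignments with SAMtools 1.9 and counted reads per gene with HTSeq, and they deposited raw counts. Strand and overlap settings of the counting are not given in the sources used here. Rows that name no gene, 24.7% to 39.4% of reads, were left out.

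Counts were tested with edgeR 4.0.16 (TMM, filterByExpr, robust quasi-likelihood test, two-sided) in R 4.3.3, within each model for diet and over all 12 libraries for the interaction and the model comparison, with Benjamini-Hochberg adjustment over all genes tested. CPM uses TMM factors over the 12 libraries, and CPM per kb uses exon length of GENCODE M21 transcripts matched to RefSeq. Replicates are separate mice and differed beyond sampling noise (chi-square per degree of freedom 34.6 to 274 within groups). The common spread between mice was 31.6% in livers and 28.7% in xenografts. Scripts were tested on simulated data. Alternatives were DESeq2 1.42.0, other scalings and filters, the resubmission mark, other samples in the fit, and leaving out each library. Members and lists were chosen by function, with earlier results of these data known. Values in every library were planned for members past the adjusted threshold in a diet comparison or the interaction, Srebf2, Insig1 and Insig2, and the widest difference of each role, and those of Hmgcs1, Acat2, Tm7sf2, Sqle, Scap, Soat1 and Npc1l1 were added after they were seen. Named genes outside the members were at most 3 called ones per list, with Srebf1, Abcg1, Hnf4a and Ass1 named beyond this rule. The markers Alb, Vsig4, Cd68, Kdr, Stab2, Lyve1, Pecam1 and Cdh5 were also named beyond it. The liver result of a further list of pathway genes is not reported here.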

Additional observations from a re-analysis of the deposited data

Results flagged for a closer look

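For 5 sterol genes the No-Trp effect differed between HCC53N xenografts and MYC-ON livers in the test of the difference itself (edgeR interaction term, 12 libraries, 3 per group). The difference of log2 fold changes, xenograft minus liver, was 2.41 for Lbr (adjusted p = 0.00165), 2.03 for Idi1 (adjusted p = 0.0302), 1.42 for Dhcr7 (adjusted p = 0.0356), 1.15 for Stard4 (adjusted p = 0.0337) and −3.37 for Abcg5 (adjusted p = 0.0275). These were 4 of the 29 tested members in the positive and 1 in the negative direction. Over all 15472 genes tested, 6.70% and 6.01% were called in these directions. In livers all 3 No-Trp mice were below all 3 controls for Lbr, Dhcr7 and Stard4 and above them for Abcg5. In xenografts all 3 No-Trp tumors were above all 3 controls for Lbr, Idi1 and Stard4. The diets overlapped for Idi1 in livers and for Dhcr7 and Abcg5 in xenografts, where Abcg5 had only 10 to 32 reads per tumor. Lbr kept the call under all 19 alternatives, whereas Idi1, Dhcr7, Stard4 and Abcg5 lost it in 6 to 8 of them.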

How the results depend on the processing

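No paired analysis was possible because the groups compared share no replicate numbers. In livers, members called higher numbered 0 to 8 and members called lower 0 to 4 with 1 library left out, and the lower count of 2 became 4 with DESeq2 and 4 in a fit over all 12 libraries. Of all genes, 7 to 1959 were called higher and 1 to 1248 lower with 1 library left out. The lower count over all genes was 1397 with DESeq2 and 1317 in the fit over all 12 libraries, against 1026. Scaling by library totals moved the median log2 fold change of all liver genes to −0.296, with 732 called higher and 1532 lower against 1311 and 1026, and the median of the members to −0.258, so that it stayed near that of all genes. It moved the median of all genes to 0.106 in xenografts, 0.408 in the interaction and 0.173 between models. In xenografts the count of members called higher went from 0 to 1 with DESeq2, and that of all genes from 36 to 250. In the interaction the counts were 1 to 5 higher and 0 to 3 lower with 1 library left out, 4 lower with DESeq2, and 2 higher and 3 lower with the resubmission mark as a covariate. Of all genes, 467 to 1195 were called higher and 449 to 1386 lower with 1 library left out, against 1036 and 930. DESeq2 called 1473 of all genes lower, and the fit with the mark 1094 higher and 1087 lower. The xenograft difference of Insig2, −0.09, changed sign with library totals (0.022) and without xenograft 36 (0.020) or 40 (0.062), with a range of −0.231 to 0.062 when 1 library was left out, and that of Dhcr7 ranged from −0.110 (without xenograft 37) to 0.602. The counts between models stayed within 2 to 3 higher and 10 to 14 lower under all 21 alternatives. The cause of these changes was not tested. Depth limits Npc1l1 everywhere and Abcg5 and Abcg8 in xenografts.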
